A study of Mus musculus with 8 samples.

Results

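The complement and coagulation factors described here are 37 genes chosen by name, 19 of the complement system and 18 of coagulation and fibrinolysis. The platform annotation named probes for 34 of them (16 complement and 18 coagulation genes), 51 of the 25697 probes on the array. C3, Cfd and Cfp had no probe of that name and were not analysed here. Of the 51 probes, 49 entered the test, 21 for 15 complement genes and 28 for 17 coagulation genes. The probe for C1ra, a protease of the first complement component, was not detected on any array and the probe for Fgb was detected on 2 arrays, so neither was tested.

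Liver RNA came from male mice aged 13 weeks, 4 Bgn knockout and 4 wild type, all on a C57BL/6 background with chow freely available and a regular light and dark cycle, and each mouse gave 1 single-colour Illumina bead array. Bgn encodes biglycan, a small proteoglycan of the extracellular matrix. The labels do not say how the knockout allele was made or which cells lack the gene. The comparison asks how transcripts for these plasma proteins differ between Bgn knockout and wild type livers at this age.

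Hepatocytes make most of the complement and coagulation proteins of the blood. Complement is started by antibody (the classical pathway), by sugar-binding lectins (the lectin pathway) or by slow spontaneous activation (the alternative pathway). These routes converge on cleavage of C3 and end in a pore built from the terminal components. Coagulation is a chain of proteases, several of which need vitamin K for their modification, that ends with thrombin cutting fibrinogen to fibrin, and inhibitors and plasmin limit and dissolve the clot. Many of these genes belong to the hepatic acute-phase response, in which interleukin-6 and interleukin-1 act through STAT3, C/EBP and NF-kappaB proteins.

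Deposited Bgn signal, which checks the labels, was 190 ± 15.3 intensity units in Bgn knockout livers and 3660 ± 918 in wild type livers (SD, n = 4 each). Between 11352 and 11910 probes were detected per array, at a median signal of 141 to 164 units. Of 10 hepatocyte markers with a probe, 9 were detected on all 8 arrays, with a summed normalised signal of 205839 to 211368 in Bgn knockout and 229266 to 233732 in wild type livers. Without Serpina1c, an alpha-1-antitrypsin gene, the sums over the other 9 were 192893 to 198335 in Bgn knockout and 195098 to 199726 in wild type livers. Arrays of both groups differed in skeletal muscle transcripts: the summed signal of 12 muscle markers, 1 of them detected on all 8 arrays, was 14236, 66101, 368 and 386 in Bgn knockout replicates 1 to 4 and 379, 391, 384 and 46608 in wild type replicates 1 to 4. The sum of 4 erythroid markers, of which Hbb-b2 was not detected, was 13056 to 21946 in Bgn knockout and 22591 to 30534 in wild type livers. For 10 Kupffer cell and macrophage markers, 8 of them detected on all 8 arrays and Cd5l on none, the sum was 2234 to 3047 in Bgn knockout and 2712 to 3935 in wild type livers. Of their 13 tested probes 11 were below 0 and 6 of these had an unadjusted p under 0.05, with a median log2 change of -0.31, and none passed. Over all tested probes, 5642 of 11494 were below 0, and 13.3% had an unadjusted p under 0.05 in either direction. The part of these differences in the results for complement and coagulation genes was not tested. The main counts are given with and without the arrays of highest muscle sum, Bgn knockout replicate 2 and wild type replicate 4. Below, both muscle-rich arrays means this pair. Bgn knockout replicate 1, with a muscle sum of 14236, stayed in those fits, so they still hold muscle signal.

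None of the 32 tested members passed the test between Bgn knockout and wild type livers. Of the 49 probes, 0 reached an adjusted p under 0.05 (limma with Benjamini-Hochberg adjustment over all 11494 tested probes, of which 127, or 1.1%, passed). At an unadjusted p under 0.05 there was 1 probe of 49, against 13.3% of all tested probes. The 4 Bgn knockout values lay wholly outside the range of the 4 wild type values for 2 probes of 49, against 8.07% of all tested probes. Leaving out both muscle-rich arrays gave 0 members at an adjusted p under 0.05, beside 48 of 10945 tested probes, and 1 at the unadjusted threshold. The unadjusted count of members varied with the arrays and the processing. It was 7 without Bgn knockout replicate 3, 3 without Bgn knockout replicate 1 or wild type replicate 1 or 3, and 2 without wild type replicate 4. It was 4 with array weights or cyclic loess, 3 with median scaling or no filter, 2 with a stricter filter or the authors' values, and 0 with a replicate block. The shares over all tested probes in these settings are not given, so these counts are not a result about the members. In whole-liver RNA, fewer cells of a type and less RNA per cell cannot be told apart, so every value below is a level in the tissue as sampled.

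Taken apart, both families held estimates of either sign. Among the 21 complement probes 11 were above 0 and 10 below, with a median log2 change (Bgn knockout minus wild type, here and throughout) of 0.015 and a range of -0.18 to 0.62. The 28 coagulation probes divided into 14 above and 14 below 0, with a median of 0.0065 and a range of -0.27 to 0.29. Over all tested probes the median was 0.0050. With median scaling in place of quantile normalization the medians were -0.098 for complement, -0.14 for coagulation and -0.018 for all tested probes, and 0 members passed. Members moved unequally with this scaling: both C1s1 probes gave 0.33, while the brighter Fga probes gave -0.27 and -0.29. A median over bright probes is not given for this setting, so these medians do not set the families apart from other bright probes. In the main fit the smallest limma adjusted p was 0.305 in complement and 0.379 in coagulation.

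**Figure D1:**
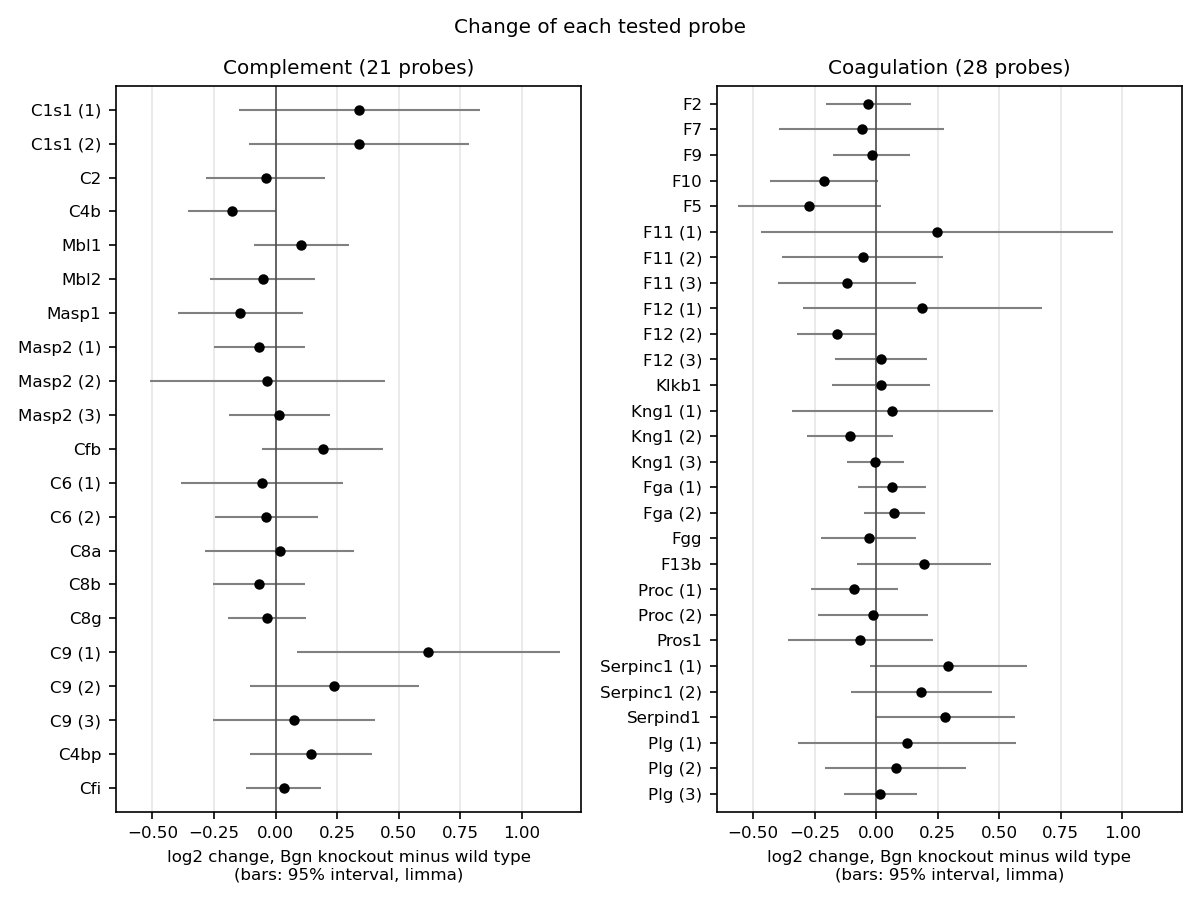
Log2 change (Bgn knockout minus wild type) of each tested probe with its 95% interval, for 21 complement and 28 coagulation probes grouped by role, with the probes of a gene numbered in order of probe ID. The first C9 probe has the sole interval that lies clear of 0, and the points of both families spread to both sides of 0.

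The intervals show how large a difference in normalised signal the arrays could have missed after quantile normalization. The highest mean was 15.1 among the members and 15.2 among all tested probes. Whether signal near the top of the scale follows transcript level was not tested. For 38 of the 49 probes (77.6%) the 95% interval of the log2 change lay within 0.5 of 0, 16 of 21 in complement and 22 of 28 in coagulation, compared with 38.1% of all tested probes. Within 1 of 0 lay 48 of the 49 intervals, the exception being the first C9 probe. Interval widths depended on the normalization. With median scaling the SE rose from 0.063 and 0.057 to 0.213 and 0.210 for Fga. For Fgg it rose from 0.088 to 0.175. For C1s1 it fell from 0.224 and 0.205 to 0.212 and 0.195. These genes are abundant in liver, and bright probes varied less between arrays after quantile normalization. The median SE was then 0.112 for these genes, 0.096 for tested probes with a mean of at least 12 on the log2 scale and 0.181 for all tested probes. Among the 846 tested probes that bright the share of intervals within 0.5 was 82.2%, and the median size of change was 0.091. The 28 complement and coagulation probes at or above that mean had a median size of 0.058, and all 49 had a median size of 0.073, with 0.163 over all tested probes. Of the intervals of these 28 probes 92.9% lay within 0.5 of 0. The part of signal level in the smaller sizes was not tested.

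**Figure D2:**
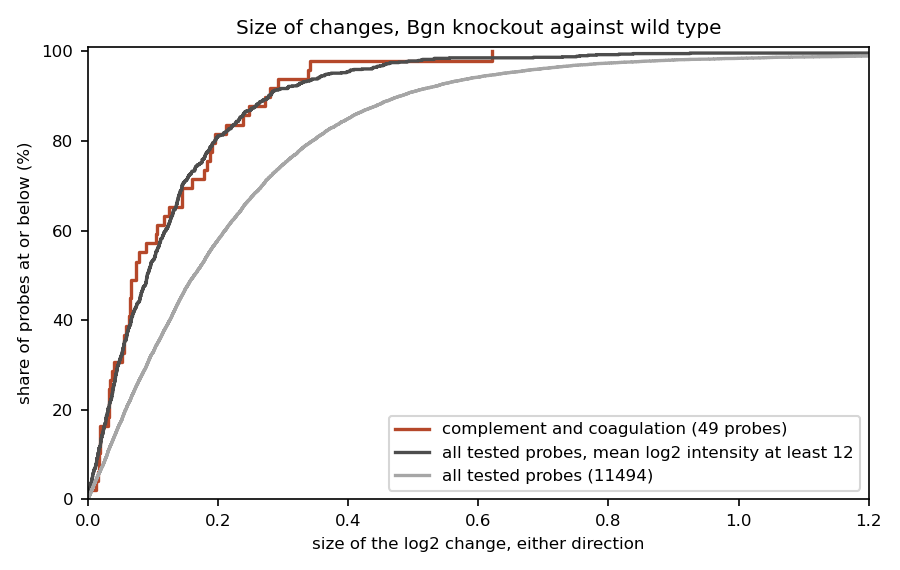
Cumulative share of probes by size of log2 change between Bgn knockout and wild type livers, for the 49 complement and coagulation probes, the 846 tested probes with a mean of at least 12 and all 11494 tested probes. The curve of the complement and coagulation probes lies nearer to that of the bright probes than to that of all probes, with medians of 0.073, 0.091 and 0.163.

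Classical pathway proteins recognise bound antibody and cut C4 and C2. C4b, the complement component that binds covalently to targets, measured 13.50, 13.39, 13.47 and 13.47 in Bgn knockout replicates 1 to 4 and 13.51, 13.53, 13.69 and 13.81 in wild type replicates 1 to 4 (normalised log2 signal, as for all values per array, always given in replicate order). Every Bgn knockout value was below every wild type value, by a small margin. The log2 change was -0.18 (SE 0.08, limma adjusted p = 0.376). Its near-identical paralog C4a had a probe that was not detected on any array, and whether the C4b probe also binds C4a transcripts was not tested. Both probes of C1s1, the protease that cuts C4 and C2, gave 0.34 (adjusted p = 0.545 and 0.509 with limma), with overlapping groups. C2, which supplies the protease of the classical C3 convertase, gave -0.04 (adjusted p = 0.915 with limma).

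Lectin pathway genes gave estimates on both sides of 0, none of which passed. Mbl1 and Mbl2, the mannose-binding lectins, gave log2 changes of 0.10 and -0.05. Masp1, the protease that activates its relative Masp2, gave -0.14, and the 3 probes of Masp2, which cuts C4 and C2, gave -0.07, -0.03 and 0.01. Adjusted p over these 6 probes was at least 0.631 with limma.

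Of the alternative pathway Cfb alone was measured. Cfb, factor B, the protease of the alternative C3 convertase, measured 11.23, 11.36, 11.27 and 11.28 in Bgn knockout livers and 10.82, 11.07, 11.22 and 11.27 in wild type livers. The highest wild type value lay within the Bgn knockout range and the other 3 lay below it. The log2 change was 0.19 (SE 0.11, limma adjusted p = 0.494).

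In the terminal pathway, whose products assemble into the membrane attack complex, the first C9 probe had the largest estimate of any member with background correction, and the C9 probes differed in size. C9 encodes the subunit that polymerises to line the pore. Its first probe, close to background, measured 5.79, 5.68, 5.28 and 6.36 in Bgn knockout livers and 5.31, 5.03, 5.46 and 4.82 in wild type livers. One Bgn knockout value lay inside the wild type range. This probe was detected on 4 Bgn knockout and 2 wild type arrays and gave 0.62 (SE 0.25, unadjusted p = 0.0265, limma adjusted p = 0.305). Without background correction the same probe gave 0.18 (limma adjusted p = 0.321), below 0.27 for Serpind1 and for the first C1s1 probe in that setting. The brighter C9 probes gave 0.24 and 0.07, with adjusted p of 0.542 and 0.876 in limma. Without both muscle-rich arrays the C9 probes gave 0.53, 0.04 and -0.01, in the same order, and none passed.

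The other terminal components differed by less than the spread between arrays. C6, an early member of the pore, gave -0.06 and -0.04 on its pair of probes. The chains of C8, another component of the pore, gave 0.02 for C8a, -0.07 for C8b and -0.03 for C8g. Among fluid-phase regulators, C4bp, which binds C4b and speeds convertase decay, gave 0.14, and Cfi, the protease that inactivates C3b and C4b, gave 0.03. Cfi had an SD of 0.09 in Bgn knockout and 0.02 in wild type livers.

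**Figure D3:**
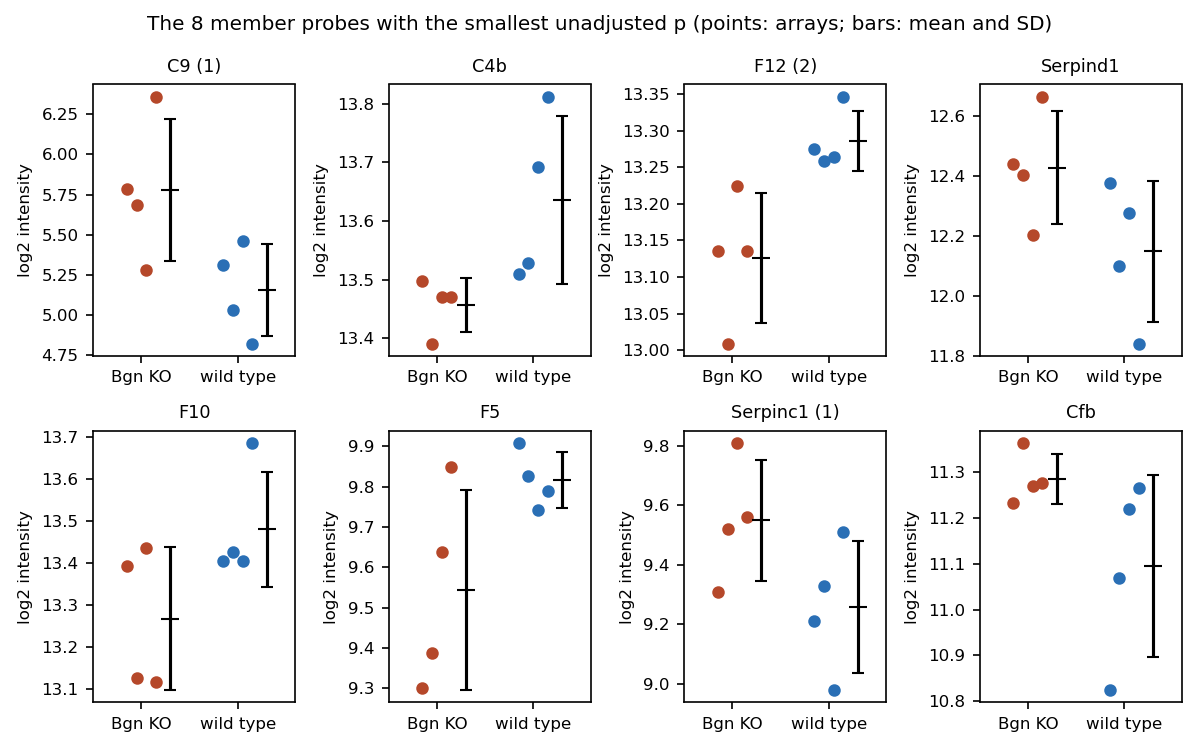
Normalised log2 signal on every array for the 8 complement and coagulation probes with the smallest unadjusted p, Bgn knockout left and wild type right, with group means. C4b and the second F12 probe show groups that do not overlap, both lower in Bgn knockout, and the other 6 overlap.

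Vitamin K-dependent procoagulants gave 4 estimates below 0, with a median of -0.046, and none passed. F10, the protease that with its cofactor converts prothrombin, measured 13.39, 13.13, 13.44 and 13.11 in Bgn knockout livers and 13.40, 13.43, 13.40 and 13.68 in wild type livers. The groups overlapped, since 1 Bgn knockout array exceeded 3 wild type arrays. The log2 change was -0.21 (SE 0.10, limma adjusted p = 0.389). F2 (prothrombin) gave -0.03, F7, which starts the tissue factor pathway, gave -0.06, and F9, the protease missing in haemophilia B, gave -0.02.

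F5, the cofactor of activated F10, had the lowest estimate of the coagulation probes. It measured 9.30, 9.39, 9.64 and 9.85 in Bgn knockout livers and 9.91, 9.83, 9.74 and 9.79 in wild type livers. Replicate 4 of the Bgn knockout group lay among the wild type values and the other 3 lay below them. The log2 change was -0.27 (SE 0.13, limma adjusted p = 0.410), with an SD of 0.25 in Bgn knockout and 0.07 in wild type livers.

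Contact and intrinsic pathway genes gave 5 probes above and 5 below 0. F12, the protease that starts the contact pathway on charged surfaces, measured 13.14, 13.01, 13.22 and 13.14 in Bgn knockout livers and 13.27, 13.26, 13.26 and 13.35 in wild type livers with its second probe. The groups did not overlap, but the log2 change of -0.16 did not pass (SE 0.07, limma adjusted p = 0.379). The other F12 probes gave 0.19 and 0.02, so the 3 probes did not share a sign. F11, which activates F9, gave 0.25, -0.06 and -0.12, the first from a probe whose mean was 6.25 in Bgn knockout and 6.01 in wild type livers, close to background. Klkb1, plasma prekallikrein, gave 0.02, and Kng1, the kininogen it cuts to release bradykinin, gave 0.07, -0.11 and -0.00 on 3 probes.

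Fibrinogen, the soluble precursor of fibrin, is assembled from the chains encoded by Fga, Fgb and Fgg, and the chains that could be tested, Fga and Fgg, had overlapping groups. Fga measured 14.83, 14.72, 14.81 and 14.83 in Bgn knockout livers and 14.79, 14.82, 14.65 and 14.67 in wild type livers with its first probe. On the second Fga probe the values were 14.97, 15.03, 14.97 and 14.94 in Bgn knockout livers and 14.94, 14.91, 14.95 and 14.81 in wild type livers. Groups overlapped on both. The log2 changes were 0.06 (SE 0.06, 95% interval -0.07 to 0.20, limma adjusted p = 0.709) and 0.07 (SE 0.06, 95% interval -0.05 to 0.20, limma adjusted p = 0.615).

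Fgg measured 13.46, 13.44, 13.26 and 13.56 in Bgn knockout livers and 13.50, 13.54, 13.52 and 13.28 in wild type livers. One array of each group was low and the groups overlapped. The log2 change was -0.03 (SE 0.09, 95% interval -0.22 to 0.16, limma adjusted p = 0.917). These estimates depended on the scaling: median scaling gave -0.27 and -0.29 for Fga and -0.19 for Fgg, cyclic loess gave -0.05 and -0.06 for Fga and -0.03 for Fgg, and none passed. For Fgb the single probe lay at background, with 4.94, 5.17, 5.14 and 5.54 in Bgn knockout livers, 2 of them detected, and 4.78, 4.78, 4.93 and 4.87 in wild type livers, none detected. Measured means were 5.20 in Bgn knockout and 4.84 in wild type livers. F13b, the carrier subunit of the enzyme that crosslinks fibrin, gave 0.19 (SE 0.13, limma adjusted p = 0.535).

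The 3 fibrinogen genes lie next to each other on chromosome 3, with 0 protein-coding genes between Fgg and Fga and between Fga and Fgb. Their promoter windows are shown because these chains are made together, and that of C9 because its first probe had the largest estimate among the members with background correction. Sequences are the 250 bases before the annotated start in RefSeq, build GRCm38.p6, written 5′ to 3′ on the gene's strand: chr3:83025903-83026152 (plus) for Fga, chr3:83049864-83050113 (minus) for Fgb, chr3:83007474-83007723 (plus) for Fgg and chr15:6445096-6445345 (plus) for C9. Capitals mark matches, on either strand, to motifs of liver and acute-phase factors: the HNF1 fragment GTTAAT (reading ATTAAC on the other strand), the C/EBP motif TTGCNNAA and the STAT motif TTCNNNGAA.
Fga: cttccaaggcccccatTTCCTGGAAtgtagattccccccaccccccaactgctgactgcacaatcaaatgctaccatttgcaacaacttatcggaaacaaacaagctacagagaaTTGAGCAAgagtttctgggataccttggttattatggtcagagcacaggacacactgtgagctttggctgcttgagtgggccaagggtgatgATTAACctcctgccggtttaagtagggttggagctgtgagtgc
Fgb: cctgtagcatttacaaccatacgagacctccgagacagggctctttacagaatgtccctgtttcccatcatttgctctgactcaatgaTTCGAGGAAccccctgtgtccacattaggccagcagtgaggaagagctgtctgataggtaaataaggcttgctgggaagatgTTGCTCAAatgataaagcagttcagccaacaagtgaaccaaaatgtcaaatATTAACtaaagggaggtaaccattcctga
Fgg: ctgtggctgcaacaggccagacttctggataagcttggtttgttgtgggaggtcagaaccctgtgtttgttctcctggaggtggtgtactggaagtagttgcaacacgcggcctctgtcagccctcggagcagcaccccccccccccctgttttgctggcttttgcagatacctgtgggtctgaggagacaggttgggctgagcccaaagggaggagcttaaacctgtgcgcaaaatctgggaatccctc
C9: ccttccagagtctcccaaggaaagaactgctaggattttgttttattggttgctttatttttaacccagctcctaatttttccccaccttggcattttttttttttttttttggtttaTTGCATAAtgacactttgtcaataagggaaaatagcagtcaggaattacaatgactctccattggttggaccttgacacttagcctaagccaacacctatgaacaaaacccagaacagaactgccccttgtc

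Fga and Fgb each held 1 match to all 3 motifs and Fgg held none. The HNF1 match lay 43 to 38 bases before the Fga start and 29 to 24 bases before the Fgb start. Over the 31 windows of the 29 members that the RefSeq table holds, the HNF1 fragment was found in 8 (25.8%), the C/EBP motif in 8 (25.8%) and the STAT motif in 6 (19.4%). The shares over all 32851 promoter windows were 6.43%, 9.56% and 7.02%. HNF4 (AAAGTCC) matched in 1 member window (3.2%, 3.58% of all), the PAR bZIP motif (TTANGTAA) in 1 (3.2%, 2.06% of all) and the E-box (CACGTG) in 0 (6.02% of all). In the windows whose sequence is shown no match overlapped another, and a match describes letters, not binding.

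Anticoagulants gave 3 probes above and 3 below 0. Serpind1 (heparin cofactor II), an inhibitor of thrombin, measured 12.44, 12.40, 12.20 and 12.66 in Bgn knockout livers and 12.37, 12.10, 12.28 and 11.84 in wild type livers. The groups overlapped through Bgn knockout replicate 3. The log2 change was 0.28 (SE 0.13, limma adjusted p = 0.379). Serpinc1 (antithrombin), the main inhibitor of thrombin and activated F10, measured 9.31, 9.52, 9.81 and 9.56 in Bgn knockout livers and 9.21, 9.33, 8.98 and 9.51 in wild type livers with its first probe. Bgn knockout replicate 1 lay within the wild type range. The changes were 0.29 (SE 0.15, limma adjusted p = 0.422) and 0.18 on the second probe (limma adjusted p = 0.581).

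Proc, protein C, which inactivates F5 and F8 once cut by thrombin, gave -0.09 and -0.01, and its cofactor Pros1, protein S, gave -0.06. Plg, the precursor of plasmin that dissolves fibrin, gave 0.13, 0.08 and 0.02 on 3 probes. None of these passed, with limma adjusted p of at least 0.681. Of the 11 members with several tested probes, 7 had probes of a single sign in the main fit, C1s1, C6, C9, Fga, Plg, Proc and Serpinc1. Probes of C6, C9, Fga, Plg and Proc turned sign under some alternatives, and those of C1s1 and Serpinc1 under none. The share over all genes with several tested probes is not given, so this count is not a result about the members.

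Across arrays, the median deviation of the complement probes from their own means lay between -0.058 and 0.11 in Bgn knockout livers and between -0.11 and 0.048 in wild type livers. For coagulation it lay between -0.0096 and 0.064 in Bgn knockout livers and between -0.057 and 0.057 in wild type livers. These ranges overlapped between the groups in both families. Single arrays were often at the end of their group's range: Bgn knockout replicate 4 was the highest of its group for 22 probes (44.9%, and 31.5% of all tested probes), and wild type replicate 4 was the lowest of its group for 24 (49.0%, and 32.3% of all tested probes). Wild type replicate 4 is one of the muscle-rich arrays, and Bgn knockout replicate 4 is not.

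**Figure D4:**
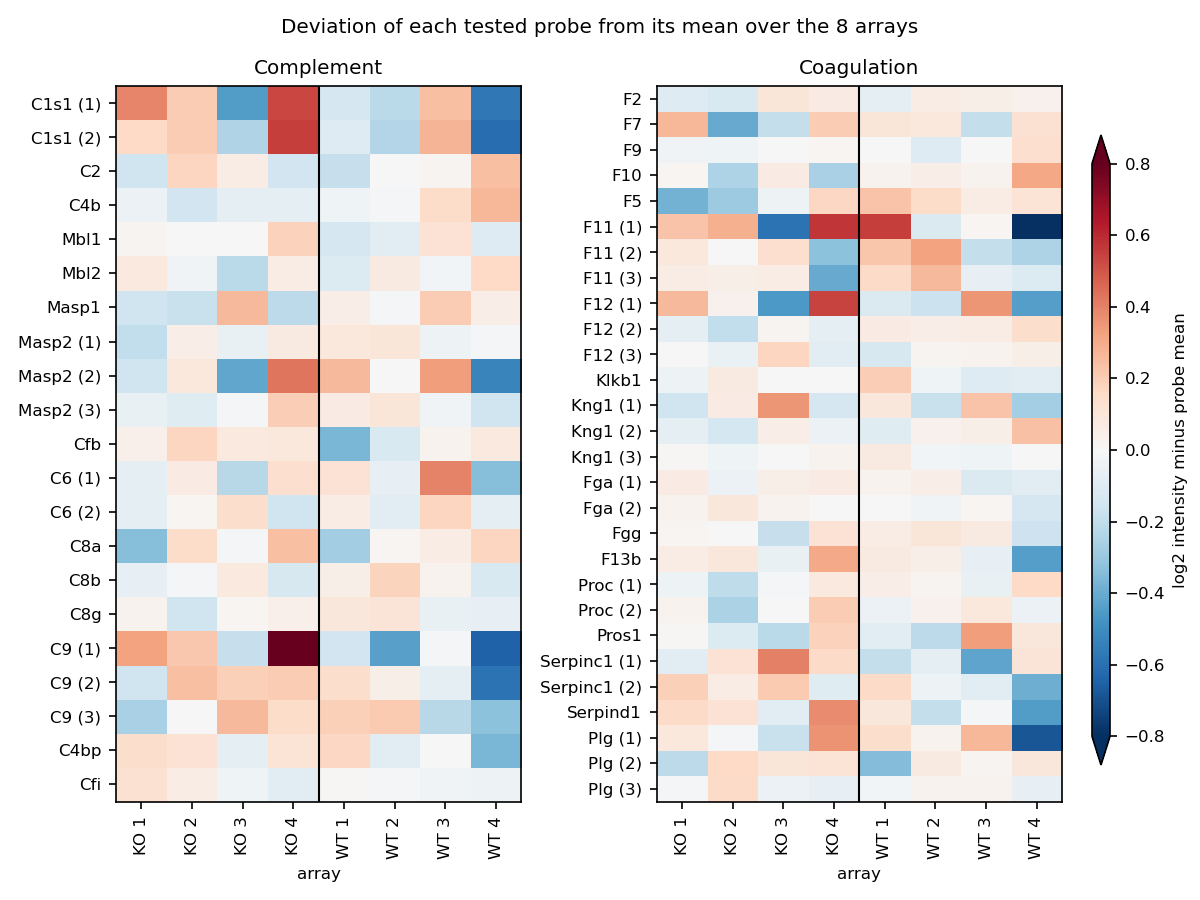
Deviation of each complement and coagulation probe from its mean over the 8 arrays, on the log2 scale, with Bgn knockout arrays left and wild type arrays right. Colours of both signs appear in every column, and no block of role-related genes separates the groups.

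Several probes of different genes shared one order of arrays, chosen for description after their values were seen: within Bgn knockout replicate 4 was highest and replicate 3 lowest, and within wild type replicate 3 was highest and replicate 4 lowest. It was found for 7 of the 49 probes (14.3%), of C1s1, C6, C9, F12, Masp2 and Plg, and for 3.91% of all tested probes. Another 9 tested probes of the same 6 genes lacked it. All 7 probes with this order had a mean under 12 on the log2 scale in both groups. The share of the order among all tested probes of that signal level is not given.

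Complement genes outside the members, a list of 38 receptors, regulators and relatives, had 21 genes with 23 tested probes. Of these probes 13 were above and 10 below 0, with a median log2 change of 0.033. At a limma adjusted p under 0.05, 1 of the 23 passed, higher in Bgn knockout livers, beside 1.1% of all tested probes. The probe that passed was that of Cfhr2, a plasma protein gene of the complement system. Cfhr2 measured 9.35, 9.86, 9.84 and 9.66 in Bgn knockout livers and 8.75, 9.18, 9.07 and 8.82 in wild type livers. All Bgn knockout values were above all wild type values. The mean was 9.68 ± 0.23 in Bgn knockout and 8.95 ± 0.20 in wild type livers (SD, n = 4 each), a 1.65-fold difference (log2 change 0.72, SE 0.15, limma adjusted p = 0.0386). Without both muscle-rich arrays the call was lost (log2 change 0.63, limma adjusted p = 0.303), and it was also lost without any 1 of 6 of the 8 arrays. Whether the probe also binds transcripts of similar sequence was not tested.

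The promoter of Cfhr2 is shown because it was the complement gene that passed. It lies at chr1:139858700-139858949 (minus, build GRCm38.p6, RefSeq, 250 bases before the start), and capitals mark its single match, the HNF1 fragment.
Cfhr2: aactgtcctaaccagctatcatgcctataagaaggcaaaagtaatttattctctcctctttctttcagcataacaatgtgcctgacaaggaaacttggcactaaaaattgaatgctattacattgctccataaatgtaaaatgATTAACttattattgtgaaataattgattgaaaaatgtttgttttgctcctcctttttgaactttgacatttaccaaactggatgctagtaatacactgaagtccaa

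Coagulation and fibrinolysis genes outside the members, a list of 38 endothelial, platelet and liver genes, had 23 genes with 40 tested probes and 0 passed. At an unadjusted p under 0.05 there were 10 of 40 probes, 6 higher and 4 lower (13.3% of all tested probes), and the median log2 change was 0.049. The smallest p belonged to Habp2, a protease that can activate F7, with 11.62, 11.44, 11.99 and 11.47 in Bgn knockout livers and 12.09, 12.13, 11.86 and 12.18 in wild type livers. Its change of -0.43 did not pass (SE 0.13, limma adjusted p = 0.165), and the other Habp2 probes gave 0.51 and 0.04. Vwf, which tethers platelets and carries F8, measured 7.16, 6.90, 7.12 and 6.72 in Bgn knockout livers and 7.37, 7.71, 7.65 and 7.32 in wild type livers. These groups did not overlap, and the change of -0.54 did not pass (SE 0.17, limma adjusted p = 0.187). Without background correction it was -0.29 (limma adjusted p = 0.189).

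Liver transcription factors and cytokine signalling genes, several of which act on complement and fibrinogen promoters, had 16 genes with 20 tested probes, of which 0 passed, 5 were above and 15 below 0, with a median of -0.054. Foxa3, a forkhead factor of hepatocytes, measured 11.87, 11.96, 12.14 and 12.49 in Bgn knockout livers and 12.85, 12.61, 12.76 and 13.31 in wild type livers. The groups did not overlap. Its log2 change was -0.77 (SE 0.16) and missed the threshold with a limma adjusted p of 0.0553. Without both muscle-rich arrays the Foxa3 change was -0.59 (limma adjusted p = 0.260). Its relative Foxa2 gave -0.61 (SE 0.22, limma adjusted p = 0.258), and -0.36 without background correction (limma adjusted p = 0.267).

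**Figure D5:**
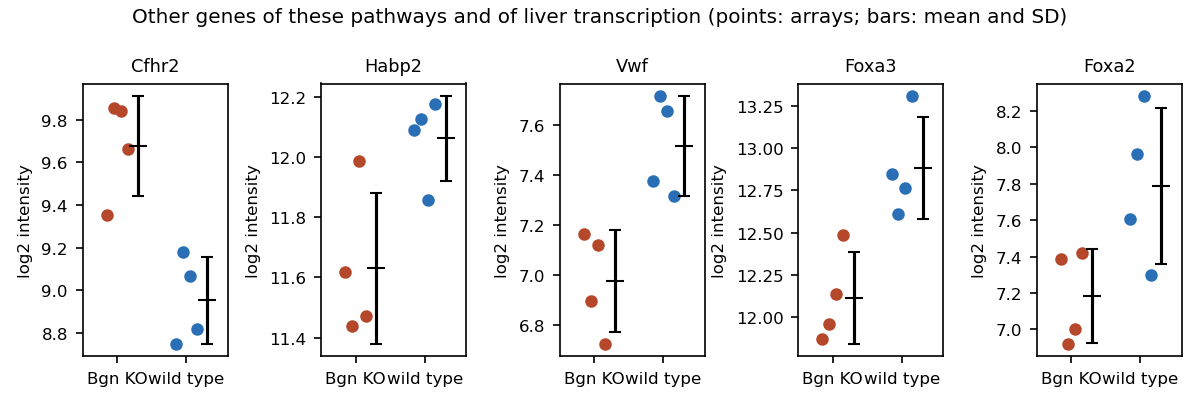
Normalised log2 signal on every array for Cfhr2, Habp2, Vwf, Foxa3 and Foxa2, Bgn knockout left and wild type right, with group means. Cfhr2 is higher in Bgn knockout and passed the test, while the other 4 have lower Bgn knockout means on the probe drawn and did not pass.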

How the data were processed

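Total liver RNA was labelled with biotin and hybridised to Illumina bead arrays, 1 per mouse. Per the file headers, the deposited unnormalized table holds intensity means and detection p-values per probe and array. Its intensities are linear with a lowest value of 109. Another deposited table, used as an alternative, has intensities normalized by the authors. How the normalization and the detection p-values were made is not stated in the labels. Both lumi 2.10.0 and R 2.15.0 appear in the submitters' processing notes, with no role.

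From the intensities, limma 3.58.1 in R 4.3.3 gave normalised log2 values with neqc (normexp background correction using detection p-values, offset 16, quantile normalization). Probes with detection p under 0.05 on at least 4 of 8 arrays were tested, 11494 in all, for 8105 genes. Gene names came from the platform table (1 gene for 23978 probes, none for 1719). Groups were compared with lmFit and eBayes (trend, robust), without covariates, at an adjusted p of 0.05. Fits were tested on simulated data. Figures used matplotlib 3.10.9 in Python 3.11.15. The number of arrays limits the precision. Where labels do not name separate litters, p-values measure only the spread between these mice.

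Values on every array are given for the 8 member probes with the smallest p and for fibrinogen, and outside the members for genes that passed or for the pair with the smallest p in a list. Members and lists were chosen with earlier results of these data known. Sample titles give replicate numbers without naming pairs. Deviations of equally numbered samples correlated at -0.30 to 0.057, and 0 of 4 pairs correlated best with each other. These correlations gave no sign of pairing, but they cannot show that the numbers carry none. Alternatives were an offset of 50, no background correction, cyclic loess, median scaling, the authors' values, a stricter filter (detection p under 0.01 on all arrays) or no filter, plain eBayes (no trend, not robust), array weights, a replicate block, leaving out both muscle-rich arrays, and leaving out each array in turn.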

Additional observations from a re-analysis of the deposited data

Results flagged for a closer look

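In 12 of 114 sets of 4 arrays (1 group, 1 probe), 1 array stood apart from the other 3 by Dixon's criterion at 95%. Chance alone gives about 1 in 20, or 5.7. The sets include probes outside the members, and all 12 that met the criterion were of member probes. The share over all tested probes is not given here, so the count cannot be read as a result about these genes. In the Bgn knockout group, on the log2 scale, replicate 4 had 12.79 for Mbl1 (others 12.61 to 12.63) and 11.55 for the third F11 probe (others 11.99 to 12.01). Replicate 3 had 12.05 for Masp1 (others 11.58 to 11.63) and 12.23 for C4bp (others 12.42 to 12.45). Replicate 2 had 14.13 for C8g (others 14.31 to 14.33) and 14.72 for the first Fga probe (others 14.81 to 14.83). Replicate 1 had 13.57 for the second C9 probe (others 13.93 to 13.98). In the wild type group, replicate 4 had 13.68 for F10 (others 13.40 to 13.43) and 13.28 for Fgg (others 13.50 to 13.54). Replicate 3 had 10.28 for F7 (others 10.56 to 10.59). Replicate 1 had 12.57 for the third F12 probe (others 12.72 to 12.74) and 10.05 for the second Plg probe (others 10.42 to 10.49). The arrays that stood apart came from both groups and from muscle-rich and other arrays.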

How the results depend on the processing

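No member passed under any of the 19 alternatives. Of 929 member values under alternatives 883 stayed within their standard error and 46 moved by more, and 81 had their sign turned, the largest of these in the main values being 0.25 (first F11 probe). Median scaling gave a median log2 change of -0.098 for complement and -0.14 for coagulation, with -0.018 over all tested probes, and cyclic loess gave -0.035 for coagulation. The sign of the small medians also turned for complement with no filter and with the stricter filter (-0.0090 in both), for coagulation with the stricter filter (-0.0034) and the authors' values (-0.0025), for both with array weights and with the brightest probe per gene (-0.034 and -0.031), for complement without both muscle-rich arrays (-0.0077), and without single arrays (-0.0073 to 0.039 for complement, -0.020 to 0.024 for coagulation). The cause was not tested. Over all tested probes 127 passed, against 197 with array weights, 48 without both muscle-rich arrays and 59 to 121 without 1 array (62 without wild type replicate 1, 67 without wild type replicate 3, and 81, 59 and 68 without Bgn knockout replicates 1, 2 and 3). With the replicate number as a block, 64 probes and 0 members passed and Cfhr2 had an adjusted p of 0.054. Whether equal numbers mark pairs is not known. Cfhr2 passed in 10 of 19 alternatives, with log2 changes of 0.61 to 0.83 and adjusted p of 0.0279 to 0.303. It was lost without wild type replicate 1 (adjusted p = 0.119), 3 (0.0753) or 4 (0.097), without Bgn knockout replicate 2 (0.165), 3 (0.118) or 4 (0.0733), and with plain eBayes (0.0786). Foxa3 passed in 4 of 19 alternatives: median scaling (0.0248), array weights (0.0138), the block (0.0148) and without Bgn knockout replicate 4 (0.0175). It did not pass in the rest, among them plain eBayes (0.117), without Bgn knockout replicate 2 (0.185) and without both muscle-rich arrays (log2 change -0.59, adjusted p = 0.260). No block by chip could be fitted, because chips are not named in the columns.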

Other observations

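The genes of this paragraph were picked after their values were seen, and none passed. All 3 probes of Vkorc1, the enzyme that regenerates vitamin K for the clotting factors and the target of warfarin, lay above 0, at log2 changes of 0.27, 0.21 and 0.24 (limma adjusted p = 0.187, 0.257 and 0.405). The first Vkorc1 probe measured 13.44, 13.36, 13.35 and 13.63 in Bgn knockout livers and 13.26, 13.21, 13.17 and 13.07 in wild type livers, without overlap. With median scaling the same probes gave 0.10, 0.04 and 0.12. Its relative Vkorc1l1 gave -0.17, 0.19 and 0.01 on 3 probes, with groups that overlapped on each. Mcfd2, part of the receptor that carries F5 and F8 out of the endoplasmic reticulum, measured 12.11, 12.14, 12.15 and 12.03 in Bgn knockout livers and 12.41, 12.40, 12.32 and 12.16 in wild type livers, without overlap, a log2 change of -0.22 (SE 0.09, limma adjusted p = 0.318). Colec10, a collectin of the lectin pathway, gave 0.70 (SE 0.23, limma adjusted p = 0.211), with 6.65, 6.74, 7.28 and 7.02 in Bgn knockout livers and 5.86, 6.55, 6.59 and 5.90 in wild type livers, without overlap. Without background correction Colec10 gave 0.30 (limma adjusted p = 0.213).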
